A study of Mus musculus with 9 samples.

Results

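Scavenger receptors and the genes of alternative macrophage activation were followed in mouse bone marrow-derived macrophages (BMDMs) given PBS, RANKL, or RANKL with vitamins D and K. The set was chosen by gene name from the 28379 genes of the deposited table. The 8 genes of it that are described here are Stab1, Cd163, Mrc1, Msr1, Marco, Scarb1, Mgl2 and Il4ra, and Retnla was not analysed here. All 8 passed the filter on low counts and were tested.

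The macrophages came from C57BL/6J mice of 10 weeks and were kept in M-CSF at 20 ng/ml, and each of the 3 groups had 3 RNA libraries. The PBS group received PBS without RANKL. The RANKL group received RANKL at 100 ng/ml for 48 h, and the RANKL + Vit D + K group (the vitamin group) received the same RANKL with calcitriol, the active form of vitamin D, at 1000 nM and menaquinone-4, a form of vitamin K2, at 20 μM per the labels (40 μM in the methods of the study). Neither vitamin was given alone, so their separate parts cannot be told apart. The number of mice pooled for a library was not stated, so p-values measure the spread between these libraries, which may be technical.

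Scavenger receptors are surface proteins with which macrophages bind and take in modified lipoproteins, dying cells, microbes and waste of the circulation. Several of them are also read as signs of alternative activation, the state that interleukin-4 (IL-4) and IL-13 bring about through the IL-4 receptor and the transcription factor STAT6, and which includes RELMα (Retnla) and the lectins CD206 (Mrc1) and CD301b (Mgl2). RANKL is the cytokine that, with M-CSF, turns macrophages into osteoclasts, the cells that resorb bone.

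Total counts lay between 65915112 and 68229647 per library, so that 3 counts were worth at most 0.0455 CPM, the count scaled to library size. The RANKL response was present in the osteoclast markers, of which 8 of 8 were higher with RANKL than with PBS. This count was 4 without PBS replicate 1 or 3 and 7 with the replicate number as a block. With the vitamins, 7 of 8 were lower than with RANKL. Cyp24a1, the vitamin D-degrading enzyme that vitamin D induces, counted 39, 113 and 64 in the vitamin libraries and 0 in each RANKL library. All 7 macrophage markers had counts in every group, but their summed level was 44924 to 53768 CPM with PBS, 25213 to 39525 with RANKL and 9320 to 18301 with the vitamins. Most of that sum was Lyz2, the lysozyme gene, which was not called between RANKL and PBS (-0.55, adjusted p = 0.438) and was lower with the vitamins against RANKL (-1.61, adjusted p = 0.00795). Replicate 2 of the vitamin group stood nearer to the other groups than its fellow replicates (-1.62 on the first axis of a multidimensional scaling of the libraries, against -3.46 and -2.98, with the other groups between 0.725 and 1.71). In FPKM it was the highest of the 3 vitamin libraries for 6 of the 8 genes and the lowest for the other two, Marco and Il4ra, so values without it are given where they matter.

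The counts called for the 8 tested genes differed between the comparisons. Between RANKL and PBS, 1 gene (Msr1) was higher and 1 (Stab1) lower at an adjusted p under 0.05 in edgeR, where 2.35% of the 17002 tested genes were higher and 1.26% lower. Between the vitamin and RANKL groups, 1 (Msr1) was higher and 4 (Stab1, Cd163, Marco, Mgl2) were lower, against 16.4% and 17.2% of all tested genes. Between the vitamin and PBS groups, 1 (Msr1) was higher and the other 7 were lower, against 19.8% and 21%. The median log2 fold change of the 8 genes was -0.29, -0.86 and -1.13 in the 3 comparisons, beside -0.04 over all tested genes in each. The groups did not overlap in normalized CPM for 4, 6 and 7 of the 8 genes, where 35.7%, 46.8% and 53.1% of all tested genes were apart. Under limma on log2(FPKM + 0.1), the calls over all genes with the vitamins against RANKL were 36.5% higher, against 48.8% in edgeR, and the median log2 fold change moved from -0.04 to -0.16. The 3 comparisons share libraries, so they are not independent. Without vitamin replicate 2 the calls were 1 higher and 3 lower for RANKL against PBS, 1 and 5 for the vitamins against RANKL, and 1 and 7 for the vitamins against PBS. The shares over all genes given above belong to the fit of all 9 libraries. Calls over all genes also changed when 1 library was left out, so these counts cannot be set against those shares.

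**Figure D1:**
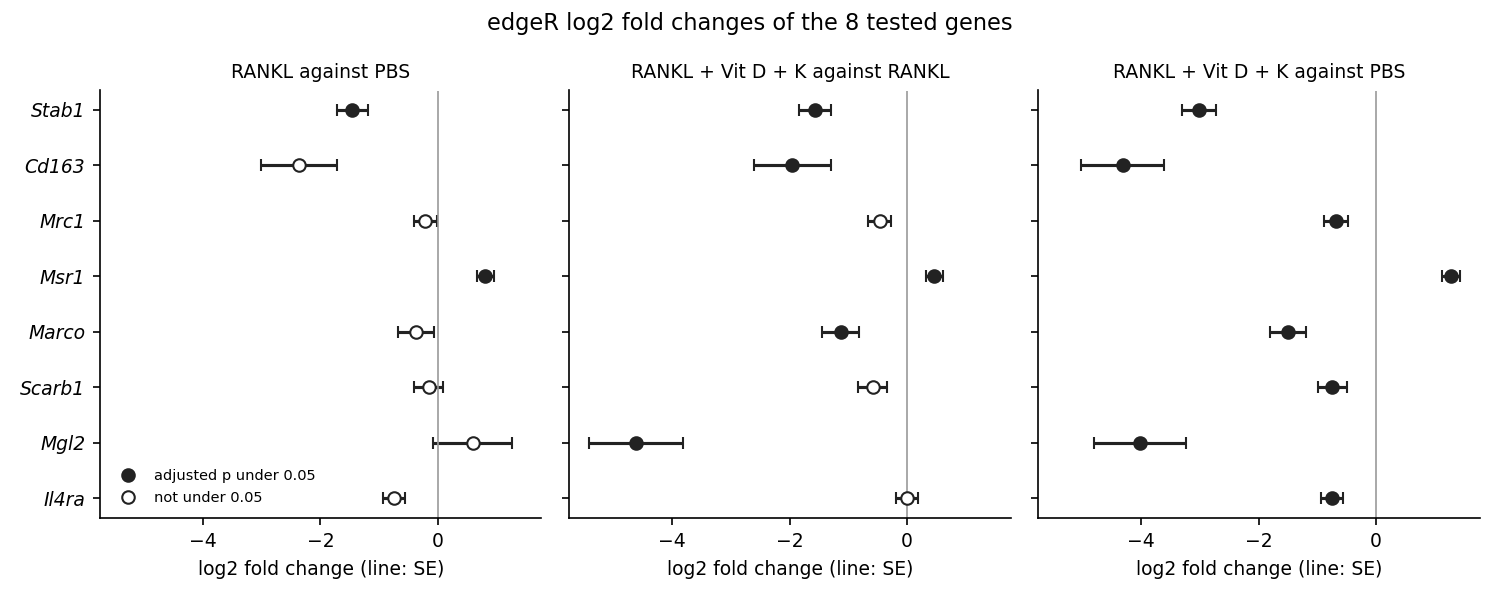
Log2 fold changes (horizontal axis, edgeR) of the 8 tested genes in the 3 comparisons, with lines for the standard error and filled points for an adjusted p under 0.05. Msr1 is the gene to the right of 0 in each panel with a filled point, and the other 7 genes lie to the left with filled points in the comparison of the vitamins with PBS.

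The stretch before the start of transcription is printed for the 4 genes that were lower with the vitamins than with RANKL, since these moved in the same direction in that comparison. The sequences are those of RefSeq on GRCm38.p6, 5′ to 3′ on the strand of the gene, and end before the start of the gene. Capitals mark GAGGAA or its reverse complement, the core that the macrophage factor PU.1 can bind, which was chosen after the sequences were seen. Of the 8 genes, 6 were in the promoter table, which held no entry for Msr1 and Scarb1.
Stab1 (chr14:31168642-31168891, minus strand): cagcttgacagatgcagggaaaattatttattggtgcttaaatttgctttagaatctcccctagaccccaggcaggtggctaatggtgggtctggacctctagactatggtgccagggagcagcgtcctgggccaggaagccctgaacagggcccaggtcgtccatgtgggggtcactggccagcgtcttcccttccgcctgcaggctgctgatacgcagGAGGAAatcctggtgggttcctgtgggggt
Cd163 (chr6:124304401-124304650, plus strand): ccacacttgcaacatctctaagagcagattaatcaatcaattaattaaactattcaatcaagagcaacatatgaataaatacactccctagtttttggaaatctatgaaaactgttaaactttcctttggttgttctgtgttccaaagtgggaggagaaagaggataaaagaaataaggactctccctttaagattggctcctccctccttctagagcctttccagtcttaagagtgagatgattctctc
Marco (chr1:120505025-120505274, minus strand): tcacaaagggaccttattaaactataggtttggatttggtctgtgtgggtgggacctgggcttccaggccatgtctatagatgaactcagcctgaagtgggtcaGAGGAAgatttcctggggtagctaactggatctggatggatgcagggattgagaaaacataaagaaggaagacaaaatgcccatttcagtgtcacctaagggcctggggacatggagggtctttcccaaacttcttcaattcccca
Mgl2 (chr11:70130107-70130328, plus strand): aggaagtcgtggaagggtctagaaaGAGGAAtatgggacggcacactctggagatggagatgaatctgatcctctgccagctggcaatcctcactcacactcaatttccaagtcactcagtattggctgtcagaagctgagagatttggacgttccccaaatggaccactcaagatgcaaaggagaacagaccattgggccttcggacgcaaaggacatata

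The PU.1 core was found in 4 of the 6 promoter windows of 250 bases, and in 23.3% of the 32851 windows of the table. Each window ends at the gene start of RefSeq, and its last 22 bases for Mrc1, 28 for Mgl2 and 151 for Il4ra lie inside the gene as the deposited table places it. Those bases were searched but are not printed, so that only 99 bases of the Il4ra window lie before the gene of the table. Counted from the start in the table, the core began 30 bases before Stab1, 146 before Marco and 197 before Mgl2, Mrc1 held it 3 times, and the windows of Cd163 and Il4ra did not hold it. The STAT6 motif (TTC and GAA around 4 free bases, 5.85% of all windows) and the AP-1 motif TGANTCA (6.75%) were in none of the 6. Both strands were read. A match is a description of letters and not a bound site, and no match says only that these letters are not in this window.

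Stab1 was the most abundant of the set in the PBS and RANKL groups and was lower in each step. It encodes stabilin-1, a large scavenger receptor of tissue macrophages and sinus endothelium that takes up acetylated lipoproteins and the matrix protein SPARC, and lies on chromosome 14 from 31139013 to 31168641. Its level was 323, 322 and 267 FPKM (a level set per transcript length and library size) in the PBS libraries, 136, 105 and 120 in the RANKL libraries, and 22.6, 59.8 and 31.6 in the vitamin libraries. No library of a group overlapped with those of another group. The log2 fold change was -1.46 (SE 0.270, adjusted p = 0.0234) for RANKL against PBS, -1.56 (SE 0.271, adjusted p = 0.00364) for the vitamins against RANKL, and -3.02 (SE 0.286, adjusted p = 0.000239) for the vitamins against PBS. The call between RANKL and PBS was lost when any one of the 6 PBS and RANKL libraries was left out, with adjusted p between 0.0655 and 0.105 and log2 fold changes between -1.57 and -1.33. The calls with the vitamins held under all 19 alternatives, and without vitamin replicate 2 the difference from RANKL was -1.94.

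Cd163 had the same order of groups at a far lower level. It encodes the macrophage receptor for complexes of hemoglobin and haptoglobin. It was counted 1660, 1588 and 1697 times in the PBS libraries, 322, 327 and 414 times in the RANKL libraries, and 10, 185 and 67 times in the vitamin libraries, which is 4.05 ± 0.160, 0.852 ± 0.103 and 0.208 ± 0.213 FPKM (mean ± SD, n = 3). The groups were apart in each comparison, but the vitamin libraries spread from 10 to 185 counts. RANKL against PBS gave a log2 fold change of -2.37 (SE 0.643), with adjusted p = 0.0822 in edgeR, so this difference was not called although the groups lay apart. It was called in 7 of the 19 alternatives. Among these were the fits without vitamin replicate 1 (log2 fold change -2.31, adjusted p = 0.00749) and without vitamin replicate 2 (log2 fold change -2.37, adjusted p = 0.0149). The log2 fold change of the vitamins against RANKL was -1.95 (SE 0.650, adjusted p = 0.0448), and -2.98 (adjusted p = 0.00265) without vitamin replicate 2. Leaving out any one of the PBS or RANKL libraries, or vitamin replicate 3, lost that call, with adjusted p between 0.0699 and 0.140. Against PBS it was -4.32 (SE 0.708, adjusted p = 0.00181), called under all 19 alternatives, and -5.34 without vitamin replicate 2.

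Several macrophage markers were lower with the vitamins as well. Of the 7, 5 were lower and 1 was higher with the vitamins than with RANKL (17.2% and 16.4% of all tested genes). Itgam, which encodes the integrin CD11b, was not called (-0.33, adjusted p = 0.115). Between RANKL and PBS the one called was Csf1r, the receptor of the growth factor M-CSF (-0.94, adjusted p = 0.0484), and that call was lost in 7 of 9 leave-outs (adjusted p up to 0.186). In that comparison Itgam (0.45) and Cd68 (0.009) were not called, the blocked fit called 2 of the 7, DESeq2 3 and limma 0. In bulk RNA, fewer cells of a type and less RNA per cell cannot be told apart. The part of these markers in the levels of Stab1 and Cd163 was not tested. Cd68, which encodes the lysosomal scavenger protein macrosialin, was the one higher with the vitamins than with RANKL (503.9 ± 56.4, 552 ± 20.5 and 718 ± 61.5 FPKM in the PBS, RANKL and vitamin groups, log2 fold change 0.53, adjusted p = 0.0143), but without RANKL replicate 1 or 3 that call was lost (adjusted p = 0.0511 at most).

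**Figure D2:**
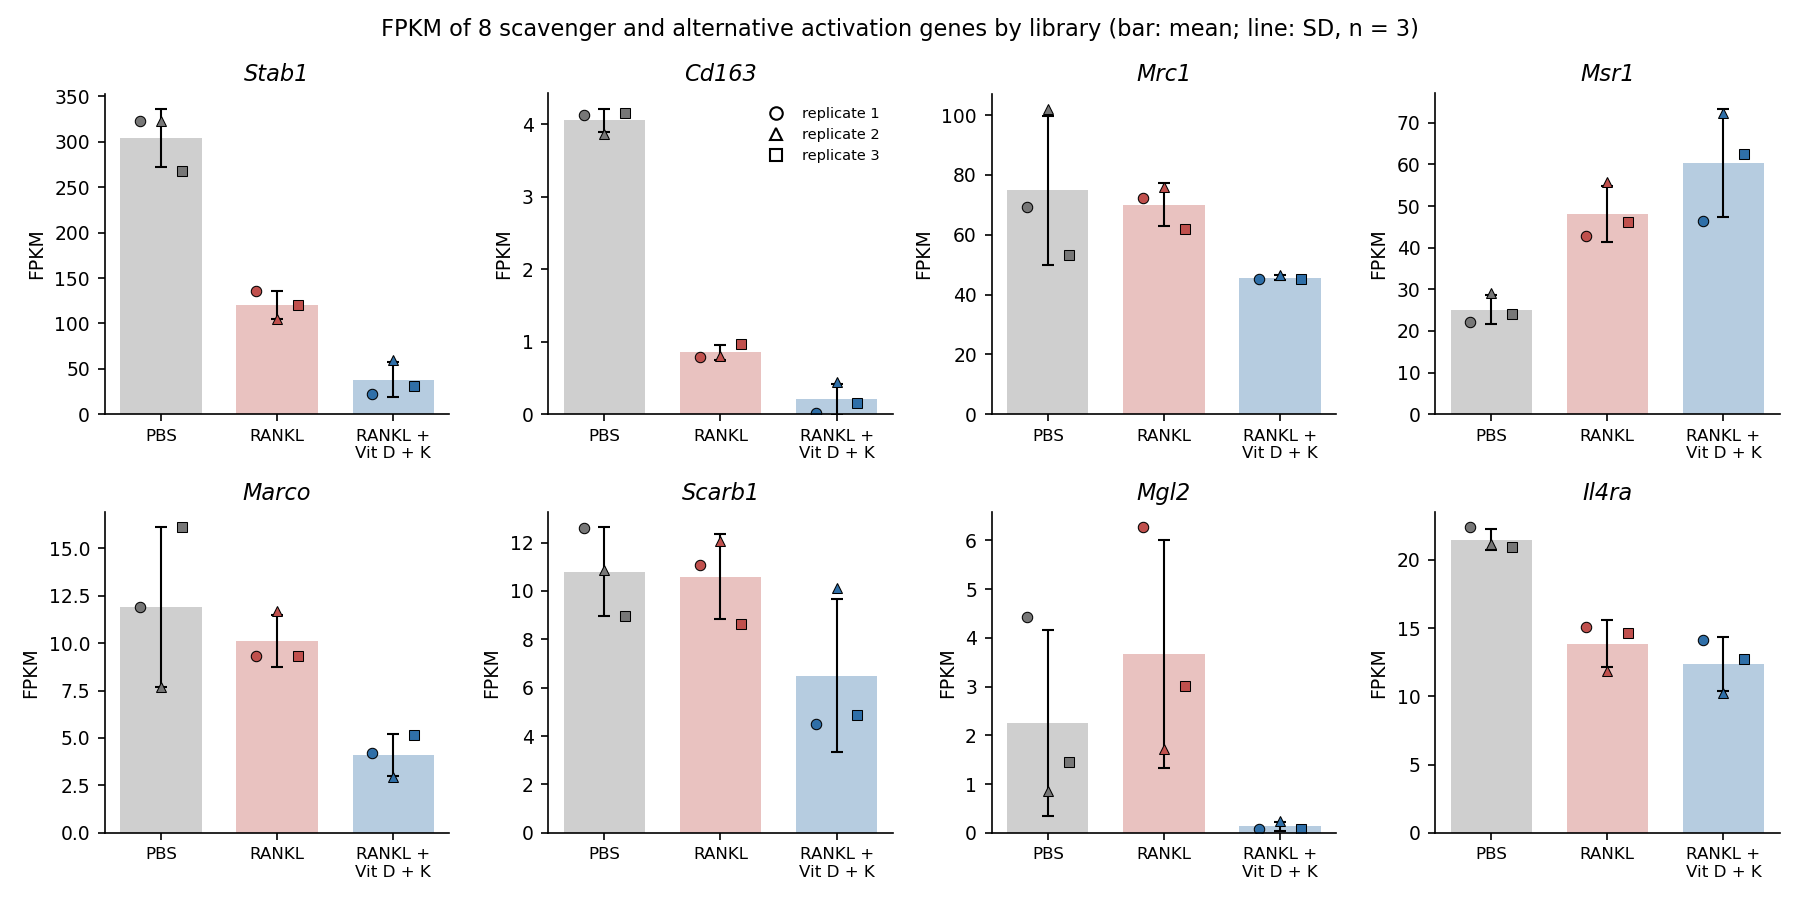
FPKM (vertical axes, linear from 0, one scale per gene) of the 8 genes in each library, with bars for the mean and lines for the SD of 3 libraries and a marker shape for each replicate number. Stab1 and Cd163 step down from PBS to RANKL to the vitamins, Msr1 steps up, and Mrc1 and Marco are lower in the vitamin libraries.

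Mrc1, the mannose receptor CD206, differed little between RANKL and PBS. It takes up glycoproteins with mannose ends and is the most used marker of alternative activation. Its level was 69.3, 102 and 53.1 FPKM in the PBS libraries, 72.3, 76.0 and 61.9 in the RANKL libraries and 45.3, 46.6 and 45.1 in the vitamin libraries. The RANKL libraries lay inside the range of the PBS libraries (log2 fold change -0.22, SE 0.198, adjusted p = 0.628), and all vitamin libraries lay below both. The difference of the vitamins from RANKL was -0.47 (SE 0.198, adjusted p = 0.0990), not called, and that from PBS was -0.68 (SE 0.198, adjusted p = 0.0231). PBS replicate 2 bore on these values, because without it the vitamins against RANKL passed (adjusted p = 0.0295), the vitamins against PBS did not (-0.37), and RANKL against PBS turned to 0.11. The vitamins against PBS also missed the threshold without PBS replicate 1 or without vitamin replicate 1 or 3, with adjusted p up to 0.0786, and adjusted p was 0.0870 without PBS replicate 2.

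Msr1 was the one gene of the set that was higher with RANKL and higher again with the vitamins. It encodes the class A scavenger receptor SR-A, which binds acetylated and oxidized low-density lipoprotein. Its level was 22.2, 29.1 and 24.2 FPKM with PBS, 42.7, 55.7 and 46.1 with RANKL and 46.5, 72.2 and 62.4 with the vitamins. All RANKL libraries were above all PBS libraries, while vitamin replicate 1 fell within the range of the RANKL libraries in FPKM and just above it in normalized CPM (369.8 against 353). The log2 fold change was 0.81 (SE 0.145, adjusted p = 0.0199) for RANKL against PBS, 0.47 (SE 0.144, adjusted p = 0.0347) for the vitamins against RANKL and 1.28 (SE 0.146, adjusted p = 0.000428) for the vitamins against PBS, and the last was kept under all 19 alternatives. The first was lost without PBS replicate 1 or 3 or without any one RANKL library (adjusted p 0.0566 to 0.0945). The second was lost without PBS replicate 1 or 3, RANKL replicate 1 or 3 or vitamin replicate 3 (adjusted p 0.0565 to 0.133), and it was called in 9 of the 19 alternatives.

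Marco, the other class A receptor of the set, went the opposite way. MARCO binds bacteria and particles and is found on macrophages of the spleen's marginal zone and the lung. It was counted 1686, 1113 and 2316 times with PBS, 1343, 1680 and 1397 times with RANKL, and 606, 439 and 737 times with the vitamins. The PBS and RANKL libraries overlapped (log2 fold change -0.37, SE 0.306, adjusted p = 0.582), and the vitamin libraries lay below all of them. The log2 fold change of the vitamins was -1.13 (SE 0.310, adjusted p = 0.0220) against RANKL and -1.50 (SE 0.313, adjusted p = 0.00541) against PBS. The call against RANKL was lost without any one RANKL library or without vitamin replicate 1 (adjusted p 0.0504 to 0.0559), and that against PBS was kept under all 19 alternatives.

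The ratio of the class A pair within a library restates the levels of Msr1 and Marco given above as 1 value. The log2 ratio of Msr1 to Marco FPKM was 0.90, 1.92 and 0.59 with PBS, 2.19, 2.25 and 2.30 with RANKL and 3.47, 4.61 and 3.60 with the vitamins. No group overlapped with another. The difference in means was 1.12 between RANKL and PBS, 1.64 between the vitamins and RANKL and 2.76 between the vitamins and PBS. Both genes were already seen to differ with the vitamins in these libraries, so the ratio is a description and adds no support. Between RANKL and PBS, Marco alone overlapped and Msr1 did not.

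Scarb1 overlapped between the groups in every comparison. It encodes SR-BI, the receptor through which cells exchange cholesterol with high-density lipoprotein. Its level was 12.6, 10.9 and 8.95 FPKM with PBS, 11.1, 12.1 and 8.63 with RANKL and 4.50, 10.1 and 4.86 with the vitamins. Vitamin replicate 2 lay among the PBS and RANKL libraries, and vitamin replicates 1 and 3 lay below them. RANKL against PBS gave -0.16 (SE 0.250, adjusted p = 0.803), and the vitamins against RANKL gave -0.59 (SE 0.251, adjusted p = 0.101). The latter was -0.96 (adjusted p = 0.00131) without vitamin replicate 2. The vitamins against PBS passed at -0.74 (SE 0.252, adjusted p = 0.0410), but of the 9 leave-outs only that of vitamin replicate 2 kept this call, and the other 8 gave adjusted p from 0.0539 to 0.183.

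Across the 6 scavenger receptors Stab1, Mrc1, Msr1, Scarb1, Marco and Cd163, the summed level and its makeup differed between the groups. The sum was 431 ± 52.1 FPKM with PBS, 260.2 ± 12.4 with RANKL and 155 ± 34.9 with the vitamins (mean ± SD, n = 3), and the groups did not overlap (exact permutation p = 0.1 in each comparison, the smallest possible). Stab1 made up 72.9%, 67.7% and 71.5% of the sum in the PBS libraries, 49.9%, 40.2% and 48.7% in the RANKL libraries and 18.3%, 31.1% and 21.2% in the vitamin libraries. Msr1 made up 5.86 ± 0.759%, 18.6 ± 2.81% and 39.1 ± 2.38%. Shares of 1 sum depend on each other, so a lower level of Stab1 in itself raises the share of Msr1. The mean FPKM of Msr1 with the vitamins was 1.25 times that with RANKL, and the libraries overlapped. Stab1 had the largest share in every PBS and RANKL library, and Msr1 in every vitamin library. In FPKM the vitamin libraries of Mrc1 overlapped with those of Msr1 and of Stab1. In the PBS group the order of mean FPKM was Stab1, Mrc1, Msr1, Il4ra, Marco, Scarb1, Cd163 and Mgl2, and the neighbours Msr1 and Il4ra, Marco and Scarb1, and Cd163 and Mgl2 overlapped. In the RANKL group Il4ra, Scarb1 and Marco overlapped in turn, and Mgl2 ranked above Cd163. In the vitamin group Il4ra came after the leading trio, Scarb1 and Marco overlapped, and so did Cd163 and Mgl2.

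**Figure D3:**
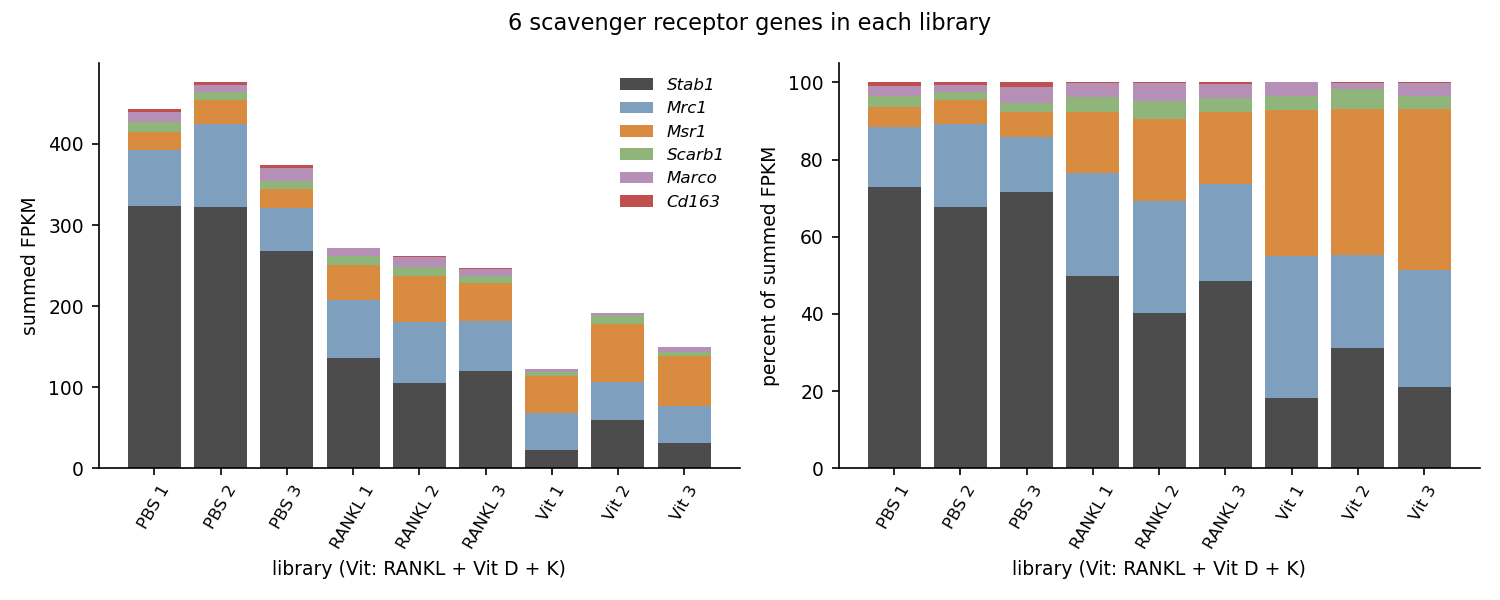
Summed FPKM of 6 scavenger receptor genes in each of the 9 libraries (left) and the percent of that sum from each gene (right), as stacked bars from 0. The sum goes from 374 to 476 FPKM with PBS to 123 to 192 with the vitamins, while the share of Stab1 shrinks and that of Msr1 grows.

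Mgl2 had the lowest log2 fold change of the 8 tested genes for the vitamins against RANKL. It encodes the galactose-type lectin CD301b, which alternatively activated macrophages and a class of dendritic cells carry. It was counted 684, 136 and 230 times with PBS, 984, 272 and 494 times with RANKL, and 13, 40 and 14 times with the vitamins. The PBS and RANKL libraries overlapped and spread widely, and replicate 1 was the highest of both groups (log2 fold change 0.59, SE 0.673, adjusted p = 0.708). At each replicate number the RANKL library lay above the PBS library. With 1 library left out, this log2 fold change ranged from -0.05 (without RANKL replicate 1) to 1.59. The difference was called in 0 of the 19 alternatives, the replicate block included. All vitamin libraries were below all others, with a log2 fold change of -4.61 (SE 0.801, adjusted p = 0.00362) against RANKL and -4.02 (SE 0.783, adjusted p = 0.00401) against PBS. Both calls were kept under all 19 alternatives. The first was -3.97 without RANKL replicate 1 and -5.20 without vitamin replicate 2, and the second was -3.02 without PBS replicate 1 and -4.61 without vitamin replicate 2.

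The close paralog of Mgl2, Clec10a, which encodes CD301a, was more abundant and was also lower with the vitamins. It had 30.0, 10.6 and 16.1 FPKM with PBS, 26.4, 6.98 and 19.4 with RANKL and 1.51, 1.59 and 1.49 with the vitamins, and the log2 fold change was -0.21 (adjusted p = 0.876) for RANKL against PBS and -3.39 (SE 0.538, adjusted p = 0.00256) for the vitamins against RANKL. How reads that match both paralogs were counted was not stated, so the split between the pair is uncertain. Several marker genes of other cells were lower with the vitamins as well. The summed level of 6 dendritic cell markers was 0.752 to 1.79 CPM with PBS, 3.40 to 4.17 with RANKL and 0.193 to 1.01 with the vitamins, where Flt3 and Cd209a counted 0 in every vitamin library. Of the 6, 0 were called by edgeR between RANKL and PBS (3 at an unadjusted p under 0.05, 2 by DESeq2, 0 by limma, and 1 by edgeR without vitamin replicate 2), and 2 (4 without vitamin replicate 2) were lower with the vitamins against RANKL, where DESeq2 called 5 and limma 0. Of the summed level of 10 neutrophil markers, Mmp8, a collagenase gene, made up 74.0% to 96.3% with PBS. Mmp8 itself was 275 to 361 CPM with PBS, 95.0 to 132 with RANKL and 43.5 to 79.8 with the vitamins, and the other 9 summed to 10.5 to 127, 10.8 to 134 and 0.515 to 1.35 CPM. Between RANKL and PBS, Mmp8 was the one neutrophil marker called (log2 fold change -1.48, adjusted p = 0.0125, and up to 0.0595 without PBS replicate 1 or RANKL replicate 2), and with the vitamins against RANKL 7 of 9 tested were lower. Of all tested genes, 17.2% were lower with the vitamins against RANKL. The T cell marker Cd4, which macrophages can also express, was higher with RANKL than with PBS (2.35, adjusted p = 0.0199, and up to 0.0879 without any one PBS library or RANKL replicate 1 or 2) and had a log2 fold change of -3.96 (adjusted p = 0.000767) for the vitamins against RANKL. The B cell marker Cd79b had a log2 fold change of -5.64 (adjusted p = 0.00315) for the vitamins against RANKL. Of 4 stromal markers, edgeR called Col1a1 alone in that comparison (-4.61, adjusted p = 0.0142), limma called 0, and edgeR without PBS replicate 1 called 2. The mast cell marker Kit (1.96, adjusted p = 0.281) and the eosinophil marker Siglecf (0.25, adjusted p = 0.819) were not called. Of 3 endothelial markers, Kdr was higher (2.01, adjusted p = 0.00779), while Pecam1 (-0.34) and Cdh5 (-0.07) were not called. The part of these cells in the fall of Mgl2 and Clec10a was not tested.

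Il4ra, the α chain shared by the receptors for IL-4 and IL-13, lay below PBS by a similar amount in both groups given RANKL. In the main edgeR fit only the comparison of the vitamins with PBS was called. Its level was 22.4, 21.1 and 20.9 FPKM with PBS, 15.1, 11.9 and 14.7 with RANKL and 14.2, 10.2 and 12.8 with the vitamins. All PBS libraries were above all others, and the RANKL and vitamin libraries overlapped. The log2 fold change of RANKL against PBS was -0.75 (SE 0.188, adjusted p = 0.0639), which passed without vitamin replicate 1 (adjusted p = 0.0469) or vitamin replicate 2 (adjusted p = 0.0101). With the replicate number as a block, which took the PBS and RANKL libraries of a number as pairs, it passed as well (-0.77, adjusted p = 0.0239). In all, RANKL against PBS was called in 7 of the 19 alternatives. That of the vitamins against PBS was -0.76 (SE 0.188, adjusted p = 0.0118), called under all 19 alternatives. That of the vitamins against RANKL was -0.01 (SE 0.187, adjusted p = 0.986), and between 0.06 and 0.17 without RANKL replicate 1 or 3 or vitamin replicate 2.

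The partners of Il4ra differed among themselves. Il2rg, the common γ chain that completes the type I IL-4 receptor, rose from 22.2, 20.3 and 17.7 FPKM with PBS to 106, 114 and 102 with RANKL, and had 72.2, 91.1 and 75.1 with the vitamins. Its log2 fold change was 2.29 (SE 0.109, adjusted p = 7.33e-05) for RANKL against PBS and -0.29 (SE 0.104, adjusted p = 0.0596) for the vitamins against RANKL, and the latter passed without vitamin replicate 2 (adjusted p = 0.0248). Il13ra1, the chain of the type II receptor, had 9.40 ± 0.923, 8.74 ± 0.215 and 6.69 ± 1.62 FPKM, and the vitamins against PBS passed (-0.48, adjusted p = 0.0226), but not without PBS replicate 1 or 3 or vitamin replicate 1 or 3 (adjusted p up to 0.143). Stat6, the transcription factor of the pathway, had 56.4, 58.2 and 53.5 FPKM with PBS, 60.4, 57.4 and 58.8 with RANKL and 54.0, 59.8 and 54.5 with the vitamins, with overlapping groups, log2 fold changes of -0.05, 0.08 and 0.02 and adjusted p from 0.571 to 0.859. Of the 12 tested genes of IL-4 and IL-13 signalling, 1 was higher and 0 lower with RANKL against PBS, 2 rose and 3 fell with the vitamins against RANKL, and 2 rose and 4 fell with the vitamins against PBS. The shares over all tested genes were 2.35% higher and 1.26% lower, 16.4% and 17.2%, and 19.8% and 21% in these comparisons. With the vitamins against RANKL, the kinase gene Tyk2 fell by 0.86 on the log2 scale (adjusted p = 0.00351) and Irs2, an adaptor of IL-4 and insulin receptors, rose by 1.61 (adjusted p = 0.00399). The list medians were -0.14, -0.12 and -0.02. Without vitamin replicate 2 the calls were 1 higher and 1 lower, 3 and 5, and 2 and 4, and with 1 library left out 2 to 8 genes were called with the vitamins against RANKL (2 without RANKL replicate 1 or vitamin replicate 3, 3 without RANKL replicate 3) and 2 to 6 against PBS (2 without PBS replicate 1 or vitamin replicate 3, 3 without PBS replicate 3 or vitamin replicate 1). One of the 2 that rose against RANKL, the cytokine gene Il4 (1.68, adjusted p = 0.0403), lost that call in 8 of 9 leave-outs, all but that of vitamin replicate 2 (adjusted p up to 0.171). The median against PBS turned to 0.07 without vitamin replicate 2 and to 0.02 without PBS replicate 3.

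Genes that supply arginine or use its product ornithine were called higher more often than lower. Of 13 tested genes of arginine and polyamine metabolism, 2 were higher and 0 lower with RANKL against PBS, 5 higher and 1 lower with the vitamins against RANKL, and 8 higher and 1 lower with the vitamins against PBS, and the medians were 0.80, 0.65 and 1.10. Beside these counts, the shares over all tested genes were 2.35% higher and 1.26% lower, 16.4% and 17.2%, and 19.8% and 21%. The medians ranged with 1 library left out from 0.48 (without RANKL replicate 2) to 0.99, from 0.34 (without RANKL replicate 1) to 0.73, and from 1.11 to 1.66 (without PBS replicate 1). The count between RANKL and PBS was 4 higher and 0 lower with the replicate number as a block, 3 and 0 without vitamin replicate 2, and 1 and 0 without any one PBS or RANKL library or vitamin replicate 3. DESeq2 called 7 of the 13 there, and 7 had an unadjusted p under 0.05 in edgeR. Ass1, the argininosuccinate synthase that rebuilds arginine from citrulline, had 0.866, 1.18 and 0.865 FPKM with PBS, 15.1, 27.4 and 19.5 with RANKL, and 18.4, 27.7 and 20.0 with the vitamins. It rose with RANKL (log2 fold change 4.27, SE 0.234, adjusted p = 0.000126), and the vitamin libraries overlapped with the RANKL libraries. Odc1, the ornithine decarboxylase that starts polyamine synthesis, had 3.55 ± 0.608, 8.70 ± 3.52 and 23.9 ± 2.23 FPKM, and its rise with the vitamins against RANKL was 1.62 (SE 0.241, adjusted p = 0.00194). The call of Odc1 between RANKL and PBS (1.15, adjusted p = 0.0355) was lost without any one PBS or RANKL library and without vitamin replicate 3, with adjusted p up to 0.141. Slc7a1, the cationic amino acid transporter that brings in arginine, rose by 3.44 (adjusted p = 0.000753), Azin1, the antizyme inhibitor, by 1.70 (adjusted p = 0.000766) and Aldh18a1, which makes an ornithine precursor, by 2.35 (adjusted p = 0.00054) with the vitamins against RANKL. Nos2, the inducible nitric oxide synthase, which uses arginine, was counted 3 to 21 times with PBS, 66 to 157 times with RANKL and 13 to 47 times with the vitamins, and did not pass in any comparison (adjusted p 0.0784, 0.0958 and 0.255), though RANKL against PBS passed without vitamin replicate 2 (adjusted p = 0.0495).

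Other genes read as signs of alternative activation went both ways. Of 17 tested genes, 2 were higher and 1 lower with RANKL against PBS, 3 higher and 9 lower with the vitamins against RANKL, and 3 higher and 7 lower with the vitamins against PBS. Among all tested genes 2.35% were higher and 1.26% lower, then 16.4% and 17.2%, and then 19.8% and 21%. The medians were -0.03, -1.85 and -0.96, also with Ccl24 and Cd209a, at 0 counts with the vitamins, set to the bound that 3 counts per library give. They moved with the libraries, to -2.64 against RANKL and -2.32 against PBS without vitamin replicate 2, when 18 genes were tested, and the median against PBS lay between -2.32 and -0.33 (without PBS replicate 1) when 1 library was left out. Without vitamin replicate 2 the calls between RANKL and PBS were 3 higher and 2 lower. F13a1, the coagulation factor XIII A chain, had 36.2 ± 4.80 FPKM with PBS, 3.65 ± 1.04 with RANKL and 0.229 ± 0.187 with the vitamins, and was lower in both steps (log2 fold changes -3.42, adjusted p = 0.00603, and -3.90, adjusted p = 0.000881). Irf4, a transcription factor downstream of STAT6, was 0.722 ± 0.0778, 0.401 ± 0.0118 and 0.103 ± 0.0255 FPKM, with -1.80 (adjusted p = 0.00145) for the vitamins against RANKL. Chil3, the chitinase-like lectin Ym1, had 6.49, 11.4 and 1.27 FPKM with PBS, 9.76, 14.7 and 1.08 with RANKL and 0.603, 0.566 and 0.371 with the vitamins. Replicate 3 of PBS and of RANKL was the lowest of its group, and the fall of -3.84 (SE 0.966, adjusted p = 0.0157) with the vitamins against RANKL was lost without vitamin replicate 3 (adjusted p = 0.0648). The neutrophil marker S100a9 had its libraries in the same order within the PBS and RANKL groups, with 32.7, 56.5 and 3.98 FPKM with PBS, 3.66 to 66.9 with RANKL and 0, 0.375 and 0 with the vitamins. So did the neutrophil marker Ngp, with 14.3, 32.8 and 1.81 FPKM, then 25.7, 37.6 and 1.98, and at most 0.217 with the vitamins. Their part in the level of Chil3 was not tested. Ccl24, an eosinophil-attracting chemokine, was counted 64, 35 and 43 times with RANKL and 0 times in each vitamin library.

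The members of that list that were higher with the vitamins against RANKL were 3 transcription factor genes. Klf4, a Krüppel-like factor that acts with STAT6, had 5.78, 6.68 and 4.58 FPKM with PBS, 12.5, 9.91 and 11.0 with RANKL and 29.3, 37.2 and 33.1 with the vitamins. The 3 groups of Klf4 were apart, and the rise with the vitamins against RANKL was 1.71 (SE 0.158, adjusted p = 0.000362), while the call between RANKL and PBS (0.85, adjusted p = 0.0215) was lost without PBS replicate 1 or 3 or RANKL replicate 1 or 3 (adjusted p up to 0.0825). The others were Egr2 (2.52, adjusted p = 0.00458) and Pparg (2.13, adjusted p = 0.00336), named here because they complete the count. Il4i1, an amino acid oxidase that IL-4 induces, was counted 6 to 12 times with PBS, 183, 258 and 356 times with RANKL and 7 to 26 times with the vitamins (log2 fold changes 4.88, adjusted p = 0.00628, and -3.97, adjusted p = 0.00206).

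Among 12 other tested scavenger receptors, 0 were called by edgeR with RANKL against PBS (2 at an unadjusted p under 0.05, 1 by DESeq2, 0 by limma, and 1 by edgeR without vitamin replicate 2), 3 rose and 5 fell with the vitamins against RANKL, and 2 rose and 5 fell with the vitamins against PBS. The medians were -0.27, -0.64 and -0.89. For all tested genes the shares called were 2.35% higher and 1.26% lower, 16.4% and 17.2%, and 19.8% and 21% in the 3 comparisons. Cd36, a class B receptor for oxidized lipoproteins and fatty acids, had 144, 134 and 139 FPKM with PBS, 84.3, 82.9 and 73.6 with RANKL and 304, 141 and 213 with the vitamins. Its vitamin libraries were above all RANKL libraries (log2 fold change 1.63, SE 0.277, adjusted p = 0.00336), and its RANKL libraries were below all PBS libraries without passing (-0.92, adjusted p = 0.106), a difference that passed without vitamin replicate 1 and without vitamin replicate 2 (lowest adjusted p = 0.00695). Scarb2, the class B protein of lysosomes, fell instead, from 42.1 ± 2.64 and 31.3 ± 4.90 FPKM with PBS and RANKL to 13.7 ± 5.38 with the vitamins (-1.08 against RANKL, adjusted p = 0.00703). Cxcl16, the membrane chemokine that binds oxidized lipoprotein, fell by 1.18 (adjusted p = 0.00143), Scarf1, an endothelial-type scavenger receptor, fell by 1.08 (adjusted p = 0.00236) on the log2 scale with the vitamins against RANKL, and Cd5l, a secreted protein with scavenger receptor domains, fell from 6.19 to 1.40 FPKM (group means, adjusted p = 0.0033).

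Genes that handle cholesterol beside SR-BI were lower more often than higher with the vitamins against PBS. Of 10 tested, 0 were higher and 2 lower with RANKL against PBS, 3 higher and 4 lower with the vitamins against RANKL, and 2 higher and 6 lower with the vitamins against PBS, with medians of -0.16, -0.82 and -0.52. Between RANKL and PBS, 2 were higher and 3 lower without vitamin replicate 2, 0 were called without PBS replicate 1 or 3 or RANKL replicate 1, and 1 was called without PBS replicate 2, RANKL replicate 2 or 3 or vitamin replicate 3. A fit blocked on the replicate number called 1 higher and 2 lower, and added Lpl, the lipoprotein lipase, with 23.9, 29.3 and 14.8 FPKM with PBS and 53.2, 106 and 36.4 with RANKL (adjusted p = 0.0129 with the block and 0.118 without it). DESeq2 called 5 of the 10 in that comparison and limma 3, and with the vitamins against RANKL each of these tools called 9. With the vitamins against PBS, 5 were called without vitamin replicate 3. In the fit of all libraries, 2.35% of all tested genes were higher and 1.26% lower with RANKL against PBS. The shares were 16.4% and 17.2% with the vitamins against RANKL, and 19.8% and 21% with the vitamins against PBS. Abca1, the exporter that loads cholesterol on apolipoprotein A-I, had 25.5, 23.6 and 25.5 FPKM with PBS, 36.3, 24.8 and 33.2 with RANKL and 3.94, 4.28 and 5.04 with the vitamins, a fall of -2.69 (SE 0.190, adjusted p = 0.000158) against RANKL. Abcg1, the exporter to high-density lipoprotein, fell by 1.35 (adjusted p = 0.00118) and Pltp, the phospholipid transfer protein, by 2.42 (adjusted p = 0.000591), whereas Npc1, which moves cholesterol out of lysosomes, rose by 0.99 (adjusted p = 0.00264) in that comparison. Apoe fell by 2.40 (adjusted p = 0.0269) with RANKL against PBS, and that call was lost without PBS replicate 1 or 3 or RANKL replicate 1 (adjusted p up to 0.104).

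The genes of classical activation, the state opposed to the alternative one in textbooks, went both ways as well. Of 10 tested, 0 were called by edgeR with RANKL against PBS (2 at an unadjusted p under 0.05, 2 by DESeq2, 0 by limma, and 2 by edgeR without vitamin replicate 2), 3 rose and 5 fell with the vitamins against RANKL, and 3 rose and 4 fell with the vitamins against PBS. Across all tested genes, edgeR called 2.35% higher and 1.26% lower, 16.4% and 17.2%, and 19.8% and 21% in these comparisons. With the replicate number as a block, Il1b was called lower with RANKL against PBS (-2.65, adjusted p = 0.00597). The medians were 0.27, -1.12 and -0.42. Without vitamin replicate 2 they were 0.27, -1.52 and -1.49, with 6 genes lower against PBS, and the median against PBS was -0.02 without vitamin replicate 1 and -0.08 without vitamin replicate 3. Cxcl10, an interferon-induced chemokine, fell by 4.74 (adjusted p = 0.000362) with the vitamins against RANKL, while Ptgs2, the inducible cyclooxygenase, rose by 3.93 (adjusted p = 0.000394) and Cd86, a costimulatory ligand, rose from 3.88 to 13.8 FPKM (group means, adjusted p = 0.00163). Il1b and Cxcl9 counted 0 in every vitamin library, so their fitted changes depend on the prior count. The medians were the same with these genes set to the bound that 3 counts per library give.

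**Figure D4:**
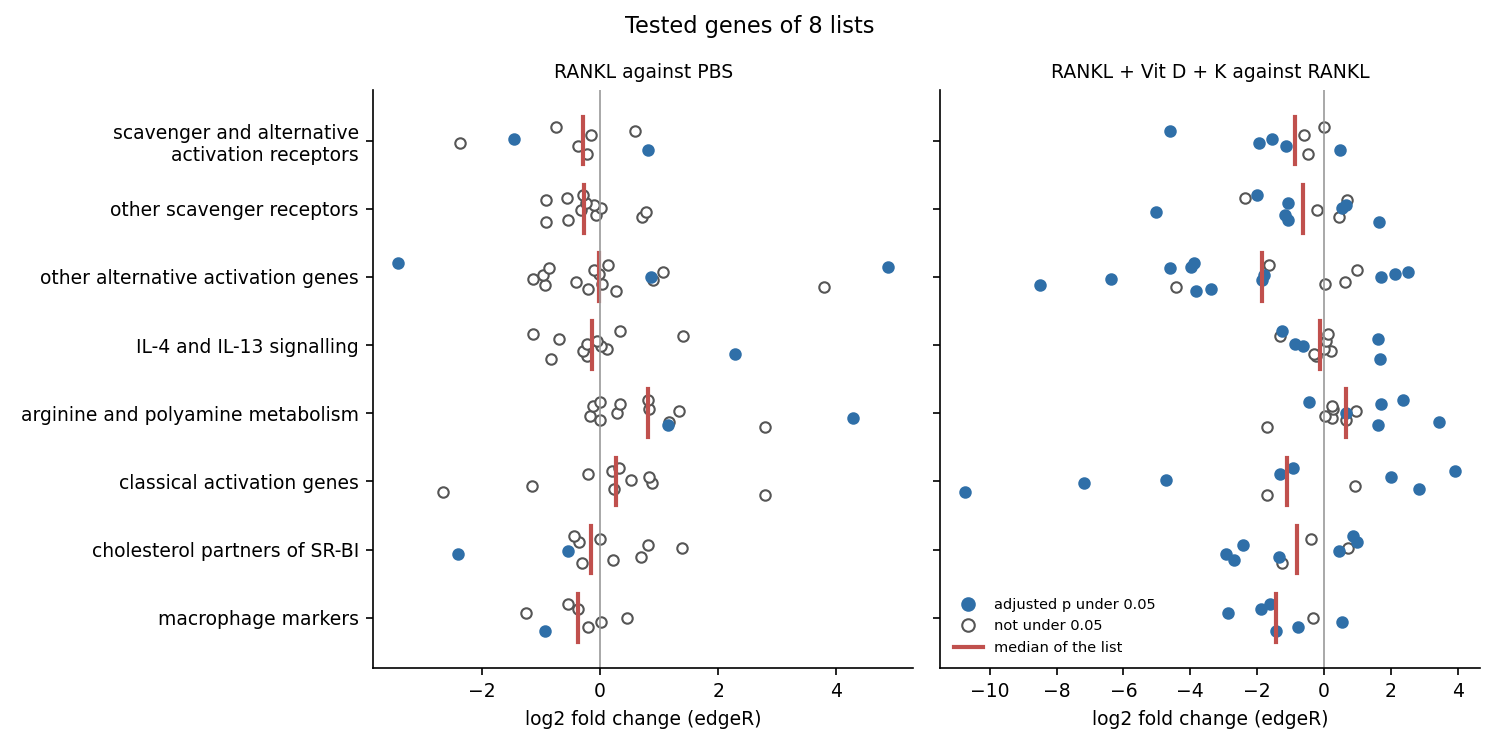
Log2 fold changes (horizontal axes, edgeR, a separate scale for each panel) of every tested gene of the scavenger and alternative activation set and of 7 related lists, for RANKL against PBS (left) and the vitamins against RANKL (right). Filled points have an adjusted p under 0.05, the red bar is the median of the list, and the values of genes with 0 counts in the vitamin group depend on the prior count. In the right panel the 8 lists hold from 1 to 5 filled points to the right of 0 and from 1 to 9 to the left.

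The genes whose pattern over the 9 libraries lay nearest to each tested gene were found by the root mean square difference of centred log2 CPM, as a description. For Stab1 they were Igf1, the insulin-like growth factor of tissue macrophages (0.265), Csad (0.270) and 4833418N02Rik (0.271). For Msr1 they were Leo1 (0.0969), Slc25a24 (0.131) and Tsfm (0.143), for Il4ra Spen (0.0637), Lgmn (0.0762) and Sash1 (0.0903), and for Scarb1 F8a (0.0736), Fbxo9 (0.0983) and Dusp7 (0.111). For Mrc1 they were Borcs7 (0.154), Fut8 (0.160) and Zfp182 (0.163), and for Marco Mirt1 (0.210), 4930516B21Rik (0.254) and Gm2007 (0.274). Cd163 and Mgl2 had no gene as near, with Gm7967 (0.547), Flt1 (0.662) and Fn3k (0.662) for the first and Gm29291 (0.449), Fxyd2 (0.461) and Cxcl10 (0.516) for the second. Within the set the nearest pair was Mrc1 and Scarb1 (0.364), farther apart than either gene was from its nearest 3. The points share their libraries and depth.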

How the data were processed

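RNA of 9 libraries was selected with oligo(dT) and sequenced as paired reads of 150 bases. The authors deposited 1 table of all libraries, holding deposited whole-number counts for each gene without normalization, beside FPKM that the authors scaled for gene length and library size. The submitters' processing notes name cutadapt 1.9, HISAT2 2.0.4, StringTie 1.3.4d, edgeR and the build hg38, but the rows carry mouse gene IDs, and 25596 of 28379 genes (90.2%), with all 8 genes analysed here, lie at the positions of GENCODE M21 on GRCm38. The notes' build was therefore not used. Whether strand was used and how reads shared by paralogs were counted is not given in the sources used here.

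The members and the related gene lists were chosen with earlier results of these data known, so counts over them are descriptions. Of the 10 members, 1 is not reported here, nor is 1 gene of a related list. The other members are named, and from each list at most 4 called genes of lowest adjusted p per comparison and Stat6, Il13ra1, Il2rg, Nos2, Odc1, Clec10a, Chil3 and Cd36. Other genes named (Cd68, Csf1r, Itgam, Lyz2, Il4, Egr2, Pparg, Il1b, Cxcl9 and the markers of other cells) were chosen after their values were seen. Groups and replicate numbers were taken from the labels, which do not say what a number shares. Deviations from the group means correlated across genes at 0.122 to 0.219 between PBS and RANKL libraries of the same number and at -0.144 to 0.00682 between those of different numbers, so the numbers were taken to pair these groups. Deviations from a group mean cancel out, so positive same-number values in themselves lower the others. The main test did not use this pairing. For the vitamin libraries the same-number values were -0.0216 to 0.107, over 0.1 in 1 of 6 pairs, and were not taken as a pairing.

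The main test was that of edgeR 4.0.16 in R 4.3.3 (filterByExpr, TMM, quasi-likelihood test, 1 model of 9 libraries). This left 17002 genes, and p-values were adjusted over them by Benjamini-Hochberg with a threshold of 0.05. The standard error is the size of the log2 fold change over the square root of F. Means ± SD are over 3 libraries. A run of the test on simulated counts was also made, and its outcome is not given here. The 19 alternatives were DESeq2 1.42.0, other filters and normalization, limma 3.58.1 on log2(FPKM + 0.1) or log2(FPKM + 1), the replicate number as a block, only the groups compared, each library left out, and counts divided by 4, which was added after seeing the data because a count of 4 occurred 2.22 times as often as counts of 3 and 5 did on average. No pair of libraries held identical counts. The floor of 3 counts covers counting error only.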

Additional observations from a re-analysis of the deposited data

How the results depend on the processing

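Over the 19 alternatives and the 8 tested genes, 377 of 456 values kept their direction and their side of the threshold, 54 kept the direction but missed the threshold, 19 newly passed it and 6 turned sign. The 6 were Scarb1 (0.029 without PBS replicate 1), Mrc1 (0.11 without PBS replicate 2) and Mgl2 (-0.047 without RANKL replicate 1) for RANKL against PBS, and Il4ra for the vitamins against RANKL (0.07 without RANKL replicate 1, 0.06 without RANKL replicate 3 and 0.17 without vitamin replicate 2), none of them called. With 1 library left out, these log2 fold changes ranged from -0.22 to 0.03 for Scarb1, -0.35 to 0.11 for Mrc1, -0.05 to 1.59 for Mgl2 and -0.16 to 0.17 for Il4ra. The 2 genes of the set called between RANKL and PBS became 4 with DESeq2, 4 with only the 2 groups compared, 4 with limma on log2(FPKM + 0.1), 4 with limma on log2(FPKM + 1), 1 with limma without a filter, and 0 to 4 when 1 library was left out. The 5 called between the vitamins and RANKL became 3 without a filter on low counts and 2 to 6 when 1 library was left out. The 8 called between the vitamins and PBS stayed within 1.5 times under every alternative. Over all genes, the 614 calls between RANKL and PBS became 1699 with DESeq2, 1736 with only the 2 groups compared and 126 to 1903 when 1 library was left out, and the 5725 between the vitamins and RANKL became 3199 to 8259 when 1 library was left out. A left-out library also lowers the number of samples, and the cause of the other changes was not tested. Limma's fold changes on log2(FPKM + 1) understate low genes, with -0.63 for Cd163 in the vitamins against RANKL. The replicate numbers were taken to pair PBS with RANKL libraries but not the vitamin libraries. With the replicate number as a block, 3, 5 and 8 genes of the set and 825, 5873 and 7041 of all genes were called in the 3 comparisons, and the one call of the set that differed was Il4ra between RANKL and PBS (adjusted p = 0.0239).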
